A study of Mus musculus with 60 samples.

Results

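Pim1 encodes a serine/threonine kinase and is a proto-oncogene of lymphoid cells. In activated B cells it is a known off-target of activation-induced cytidine deaminase (AID), the enzyme that starts antibody class switching by turning cytosines of the heavy chain locus (Igh) into uracils. A broken end at Pim1 can be joined to a break elsewhere in the genome, and such a joint is a translocation. The method used, LAM-HTGTS, amplifies and sequences such joints genome-wide from a fixed broken end, the bait, and each joint to another place is called a junction.

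The Pim1 interval was chr17:29610000-29639999 of mm9, a window of 30 kb. It was chosen by its junction count over the same libraries analysed here, with earlier results known. It held 964 of 550524 genome-wide junctions, which are all junctions outside the bait chromosome 15, the mitochondrial genome, chromosome Y and the immunoglobulin loci. All deposited lists together held 1219247 junctions.

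The cells were CH12F3, a mouse B-lymphoma line that can switch its antibody class, and every group was stimulated for 72 h with IL-4, TGF-β and anti-CD40. The 60 libraries formed 12 groups from 4 backgrounds and 3 treatments. The backgrounds were Lig4-KO, AID-KO, WT-Idelalisib and WT. Lig4 is the DNA ligase of classical end joining, and idelalisib inhibits the kinase PI3Kδ, whose inhibition is known to raise AID activity. Within each background the cells received tazemetostat, valemetostat or the solvent DMSO. Tazemetostat inhibits the histone methyltransferase EZH2, and valemetostat inhibits EZH2 and its relative EZH1. There were 5, 5 and 5 libraries in Lig4-KO, 4, 3 and 5 in AID-KO, 5, 5 and 5 in WT-Idelalisib, and 5, 8 and 5 in WT, in the order tazemetostat, valemetostat, DMSO. The labels give no dose and do not say whether a knockout line is 1 clone or whether replicates are separate cultures, so any p-value here reflects library-to-library spread, which may be technical.

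Genome-wide junctions per library ran from 11269 to 19119 in Lig4-KO and from 4450 to 14497 in the other backgrounds. As a check of the AID-KO label, Igh junctions made up 0.0160% to 0.0379% of all junctions (group means) in AID-KO, against 1.37% to 3.45% in WT. Run 1 held WT tazemetostat and WT DMSO, run 2 valemetostat in WT-Idelalisib and in WT, and run 3 AID-KO valemetostat with replicate 5 of AID-KO DMSO. Run 4 held AID-KO tazemetostat with the other AID-KO DMSO libraries, run 5 all of Lig4-KO, and run 6 tazemetostat and DMSO in WT-Idelalisib. Lig4-KO therefore cannot be told apart from its run, and valemetostat shared no run with DMSO in WT-Idelalisib or in WT.

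The Pim1 promoter was searched for short motifs of AID, and whether AID acts on this stretch was not measured here. AID is known to favour cytosines within AGC and GCT, which are reverse complements of each other, and within AGCT, where both overlap. The sequence is the 250 bases before the first Pim1 start in RefSeq (GRCm38.p6, chr17:29490535-29490784, plus strand), with each AGC or GCT in capitals.
Pim1 promoter: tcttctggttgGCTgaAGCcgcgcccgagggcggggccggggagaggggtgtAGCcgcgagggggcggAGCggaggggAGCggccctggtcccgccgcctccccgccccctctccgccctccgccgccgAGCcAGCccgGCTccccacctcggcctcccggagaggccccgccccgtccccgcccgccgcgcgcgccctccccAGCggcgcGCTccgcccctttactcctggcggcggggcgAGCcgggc
This stretch held 11 matches to AGC or GCT, against a median of 9 over 32851 promoters of the same length, and 36.5% of these promoters held at least as many. It held 0 matches to AGCT, which 70.4% of promoters hold. Its G and C content was 82.4%, and 0.578% of promoters reached that value. RefSeq lists a second Pim1 start, whose 250 bases (chr17:29492835-29493084) held 9 matches to AGC or GCT and 0 to AGCT, with a G and C content of 48% that 66.2% of promoters reached. A match is only a description of the letters. The junctions are placed on mm9 and the promoter on GRCm38, so which junctions fall in it was not determined. In GRCm38 the neighbours of Pim1 are Fgd2 before it and Tmem217 after it, and the long noncoding RNA gene Gm26885 overlaps it.

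Pim1 was a narrow peak of junctions in 3 of the 4 backgrounds. Of its 964 junctions, 819 (85.0%) came from Lig4-KO, 3 from AID-KO, 110 from WT-Idelalisib and 32 from WT. Per 10000 genome-wide junctions this was 37.5 in Lig4-KO (95% Poisson interval 35.0 to 40.1), 0.283 in AID-KO (0.0583 to 0.826), 10.1 in WT-Idelalisib (8.33 to 12.2) and 2.72 in WT (1.86 to 3.85). These intervals cover counting error only, and the levels chose the interval, so no test was made between backgrounds. The single libraries ran from 23.1 to 47.0 with a median of 37.7 in Lig4-KO, from 0 to 1.38 in AID-KO, from 1.36 to 21.2 with a median of 8.78 in WT-Idelalisib, and from 0 to 6.74 with a median of 2.45 in WT. No Lig4-KO library overlapped a library of any other background, whereas WT-Idelalisib and WT overlapped. Pim1 had no junction in 9 of 12 AID-KO libraries and in 3 of 18 WT libraries.

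With valemetostat, the only treatment for which both backgrounds shared a run, WT-Idelalisib averaged 10.3 ± 7.06 (SD, n = 5) and WT 2.62 ± 1.94 (SD, n = 8), a ratio of 3.92. In 4 of the 5 WT-Idelalisib libraries the rate lay above every WT valemetostat library. The ratio of WT-Idelalisib to WT was 2.51 with tazemetostat and 5.69 with DMSO, where in each case 4 of 5 libraries exceeded all WT libraries of the same treatment. The ratio of Lig4-KO to WT was 10.3 with tazemetostat, 15.4 with valemetostat and 16.3 with DMSO, and all 5 Lig4-KO libraries of each treatment exceeded all WT libraries. The WT DMSO mean rests on 6 junctions in 5 libraries, so ratios to it are coarse.

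**Figure D1:**
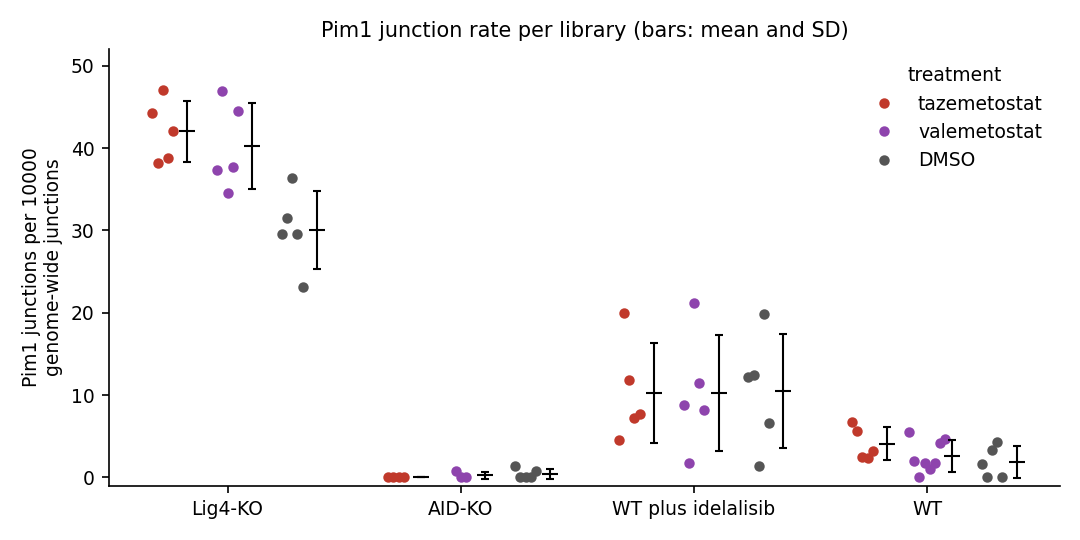
Pim1 junctions per 10000 genome-wide junctions (vertical axis) in each of the 60 libraries, by background and treatment, with the mean and SD beside each group. Lig4-KO libraries lie between 23.1 and 47.0, above all others, and AID-KO libraries lie between 0 and 1.38.

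The peak did not extend into neighbouring windows. The 20 windows of 30 kb nearest to Pim1 held 1 to 34 junctions each over all libraries, with a median of 15.5, so Pim1 held 62.2 times the median of its neighbours. In Lig4-KO Pim1 held 819 junctions and the neighbours a median of 6.5, with a highest of 20. In AID-KO the 3 junctions at Pim1 lay within the range of its neighbours, 0 to 14 with a median of 2.5. In WT-Idelalisib the values were 110 and a median of 3, and in WT 32 and a median of 3, and no neighbour reached Pim1 in either (highest 8 and 6). By its count, Pim1 was in place 3 of 69155 windows that held a junction in all libraries together, and in place 2 of 57602 in Lig4-KO. Its place was 8292 of 46436 in AID-KO, 8 of 47807 in WT-Idelalisib and 18 of 48366 in WT.

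**Figure D2:**
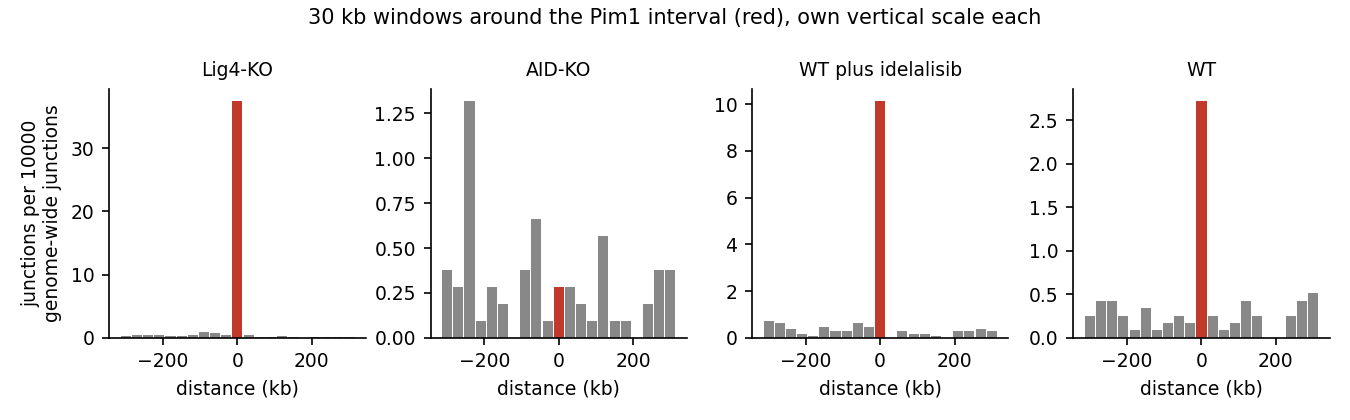
Junctions per 10000 genome-wide junctions in the Pim1 interval (red) and in the 20 nearest windows of 30 kb (grey), by distance in kb, for each background with its own vertical scale. Pim1 stands above all neighbours in Lig4-KO, WT-Idelalisib and WT, and lies among them in AID-KO.

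In Lig4-KO, Pim1 was joined more often in cells given an EZH2 inhibitor than in DMSO cells, but neither difference passed adjustment over the 8 comparisons of this kind. Tazemetostat libraries had 44.2, 38.1, 47.0, 38.8 and 42.1 Pim1 junctions per 10000. Valemetostat libraries had 37.4, 46.9, 34.6, 37.7 and 44.5. DMSO libraries had 29.5, 31.6, 36.4, 29.5 and 23.1. All 5 tazemetostat libraries lay above every DMSO library, and 4 of 5 valemetostat libraries did.

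For tazemetostat in Lig4-KO the mean was 42.1 ± 3.71, against 30.02 ± 4.77 with DMSO (SD, n = 5 each), a ratio of 1.40. The difference was 12.0 per 10000, with a 95% interval of 5.7 to 18.2. The two-sided exact permutation test gave p = 0.00794, the smallest value that 5 against 5 libraries allow, and an adjusted p of 0.0635. Even at that smallest p, a comparison could not pass adjustment over 8 unless another comparison also had a low p. For valemetostat the mean was 40.2 ± 5.24 (SD, n = 5), a ratio of 1.34 to DMSO. That difference was 10.2 (3 to 17.4), with p = 0.0159 and an adjusted p of 0.0635 in the exact permutation test. All 15 libraries came from 1 run. Counting only the densest 10 kb brought both differences past the threshold of 0.05 (12.2 and 10.7, adjusted p = 0.0317 each, exact permutation). That stretch was placed by the Pim1 junctions of these same libraries, most of them from Lig4-KO. The unadjusted p for tazemetostat stayed at 0.00794 (exact permutation), and only the valemetostat p fell, to the same value. The lower adjusted p for tazemetostat thus came from the valemetostat test. A quasi-Poisson regression of the counts did so too, with log2 ratios of 0.50 (adjusted p = 0.0150) for tazemetostat and 0.45 (adjusted p = 0.0314) for valemetostat. Its adjustment left out AID-KO tazemetostat, which could not be fitted. No other recomputed rate difference passed. Without the densest 2 kb the differences were 4.57 and 4.15 (adjusted p = 0.190 and 0.222, exact permutation). Igh junctions went the other way in the same libraries, at 1.18 ± 0.0803% of all junctions with tazemetostat and 1.03 ± 0.0513% with valemetostat, against 1.56 ± 0.0638% with DMSO (SD, n = 5 each). Here Igh is given per all junctions and Pim1 per genome-wide junctions. Per 10000 of all junctions, Pim1 was still higher than with DMSO, by 2.78 with tazemetostat and 2.62 with valemetostat, neither passing the threshold. The relation of both measures was not tested.

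The size of the Lig4-KO difference at Pim1 was close to the median of the other frequently joined windows. Of all 30 kb windows, 140 held on average at least 1 junction per library, and they were tested together with limma voom. This mean was taken over all 60 libraries, and Lig4-KO gave 218456 of the 550524 genome-wide junctions. Windows that were high in Lig4-KO, also in its inhibitor libraries, thus entered most easily. The median over windows may depend on that choice. In the fit over all 60 libraries the log2 change of Pim1 with tazemetostat was 0.49 ± 0.38 (SE), and the median over the 140 windows was 0.52. In this fit 13.6% of windows were called at an adjusted p under 0.05 (limma), and Pim1 was not called (adjusted p = 0.394). With valemetostat Pim1 had a log2 change of 0.42 ± 0.38 (SE) against a median of 0.38, and it was not called (adjusted p = 0.566, limma) where 3.57% of windows were. Of the 140 windows, 52.1% changed by at least as much as Pim1 with tazemetostat and 46.4% with valemetostat.

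In a limma voom fit on the Lig4-KO libraries alone, Pim1 was called with both compounds. Its log2 change was 0.50 ± 0.14 (SE, adjusted p = 0.00922) with tazemetostat, where 27.1% of windows were called. It was 0.44 ± 0.15 (SE, adjusted p = 0.0325) with valemetostat, where 15.7% were called. The change at Pim1 was close in size in both fits, and its SE was larger in the fit that also held the libraries with few Pim1 junctions. The median over windows in the smaller fit was 0.52 with tazemetostat and 0.36 with valemetostat, so Pim1 again lay near it.

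**Figure D3:**
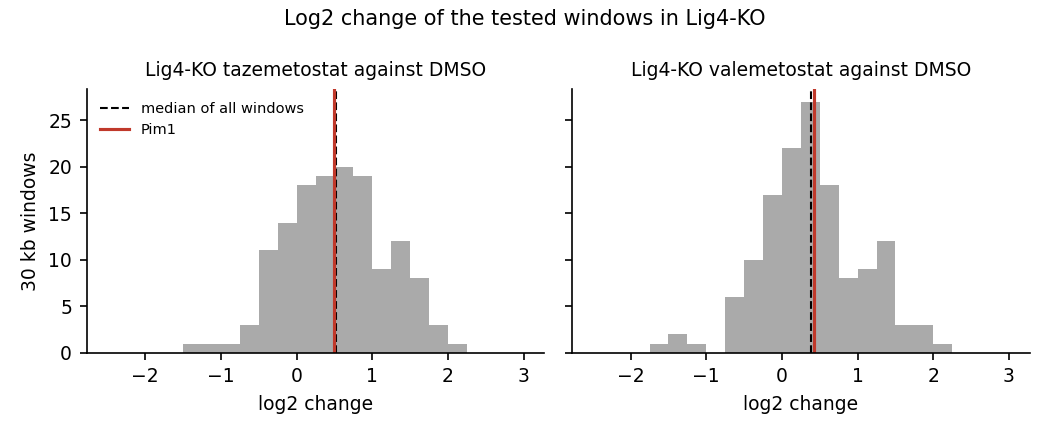
Log2 change of the 140 tested windows of 30 kb in Lig4-KO, for tazemetostat against DMSO (left) and valemetostat against DMSO (right), from the fit over all libraries. The red line marks Pim1 (0.49 and 0.42) and the dashed line the median of all windows (0.52 and 0.38).

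In WT-Idelalisib, neither compound gave a detectable difference at Pim1. Tazemetostat libraries had 4.53, 19.98, 11.9, 7.16 and 7.76 per 10000. Valemetostat libraries had 8.78, 1.78, 21.2, 11.5 and 8.14, and DMSO libraries 12.2, 12.5, 1.36, 19.9 and 6.59. The 3 groups overlapped over nearly their whole range. The means were 10.3 ± 6.04 with tazemetostat, 10.3 ± 7.06 with valemetostat and 10.5 ± 6.96 with DMSO (SD, n = 5 each). The difference from DMSO was -0.231 with an interval of -10 to 9.5 for tazemetostat and -0.219 with an interval of -10.9 to 10.1 for valemetostat (adjusted p = 0.960 for both, exact permutation). An effect of the size of the DMSO mean would lie near the edge of these intervals.

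In WT the counts at Pim1 were low in every treatment. Tazemetostat libraries had 3, 3, 2, 2 and 3 Pim1 junctions, and DMSO libraries 1, 0, 2, 3 and 0. The 8 valemetostat libraries had 0 to 4. The rate was 4.10 ± 1.98 with tazemetostat (SD, n = 5), against 1.84 ± 1.93 with DMSO (SD, n = 5). Their difference was 2.25 (-0.9 to 5.3), with an adjusted p of 0.317 in the exact permutation test, and 2 of 5 tazemetostat libraries lay above every DMSO library. The valemetostat mean of 2.62 ± 1.94 (SD, n = 8) differed from DMSO by 0.774 (-1.6 to 3.2), with an adjusted p of 0.786 in the exact permutation test.

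In AID-KO, Pim1 stayed at or near 0 with every treatment. None of the 4 tazemetostat libraries held a Pim1 junction. Over 27935 genome-wide junctions this allows a rate of up to 1.32 per 10000 (upper end of the 95% Poisson interval, counting error only). Of the valemetostat libraries, 1 of 3 held 1 junction, and of the DMSO libraries, 2 of 5 held 1 each. The differences from DMSO were -0.436 (-1.3 to 0.1) with tazemetostat and -0.191 (-1.3 to 0.9) with valemetostat, with adjusted p of 0.786 and 0.857 in the exact permutation test. Against the DMSO libraries of the same run they were -0.345 and -0.555, the second resting on 1 DMSO library.

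Across all libraries, limma voom did not call Pim1 in WT-Idelalisib, WT or AID-KO either. The share of windows called was 0% for both compounds in WT-Idelalisib and in AID-KO. An unadjusted p under 0.05 (limma) was found for 11 and 16 windows in WT-Idelalisib and 2 and 43 in AID-KO (tazemetostat, valemetostat). With valemetostat in AID-KO the median log2 change over windows was -0.98. Those libraries were deeper than every AID-KO DMSO library. They all came from run 3, which among the AID-KO DMSO libraries held only replicate 5. The part of depth or run was not tested. In WT 0.714% of windows were called with tazemetostat and 2.86% with valemetostat. Pim1 had a log2 change of 1.10 ± 0.57 (SE, adjusted p = 0.360, limma) with tazemetostat in WT, where the median window was at 0.09.

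Whether the change at Pim1 differed from that in WT was tested in the same fit as a difference of changes, and Pim1 was called in none of the 6 comparisons. Called windows made up 1.43% (tazemetostat) and 8.57% (valemetostat) for Lig4-KO, 0% and 0% for AID-KO, and 0% and 1.43% for WT-Idelalisib. For Lig4-KO the difference of log2 changes at Pim1 was -0.61 ± 0.68 (SE, adjusted p = 0.688, limma) with tazemetostat and -0.11 ± 0.65 (SE, adjusted p = 0.962, limma) with valemetostat. The WT side rests on 13, 13 and 6 Pim1 junctions (tazemetostat, valemetostat, DMSO). Both SEs are larger than the Lig4-KO changes themselves, 0.49 and 0.42, so a difference of that size could have been missed. The difference seen in Lig4-KO is thus neither shown to be particular to that background nor shown to be shared with WT.

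Both EZH2 inhibitors were also set against each other at Pim1 in each background, 4 comparisons in all. Valemetostat minus tazemetostat was -1.84 per 10000 (interval -9.3 to 5.6) in Lig4-KO, 0.246 (0 to 0.7) in AID-KO, 0.0117 (-10.1 to 9.2) in WT-Idelalisib and -1.48 (-3.9 to 0.9) in WT. The adjusted p in the exact permutation test was 0.698, 0.698, 0.992 and 0.698 in this order. No difference between the compounds was detectable, and the intervals still allow differences of several junctions per 10000 in Lig4-KO and more in WT-Idelalisib. Both compounds shared a run only in Lig4-KO, so in the other backgrounds compound and run cannot be told apart. Doses are not given, so the compounds are compared as they were used.

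Within the interval, most junctions fell into a short core. The densest 2 kb, 29628000 to 29629999, held 645 of 964 junctions (66.9%), and 440 of these lay in its first 1 kb. The share was 64.2% in Lig4-KO, which gave most of the junctions, 84.5% in WT-Idelalisib and 81.3% in WT, each pooled over libraries. The densest 10 kb, 29623400 to 29633399, held 931. The core began abruptly, with 11 junctions in the 500 bp before it and 273 in its first 500 bp. This edge was present in Lig4-KO (216 in the first 500 bp, 10 just before it), in WT-Idelalisib (47 and 1) and in WT (10 and 0). The signal did not end there, since the next 500 bp further out held 45 junctions, 43 of them from Lig4-KO. The core was placed by its count, which favours a start at such a step. None of the 3 AID-KO junctions lay in the core. The junctions covered 776 positions, of which 634 were seen in a single library. No position was shared by more than 5 libraries, and no library listed the same Pim1 junction more than 1 time.

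The core held a smaller share of the Pim1 junctions in Lig4-KO than in WT-Idelalisib. It took 64.2 ± 2.30% of Pim1 junctions per library in Lig4-KO with tazemetostat (SD, n = 5), against 89.7 ± 10.7% in WT-Idelalisib (SD, n = 5). With valemetostat it took 63.6 ± 4.80% in Lig4-KO (SD, n = 5), against 90.1 ± 7.01% in WT-Idelalisib (SD, n = 4). Both differences passed the exact permutation test (adjusted p = 0.0179 each, over 9 tests). With DMSO the shares were 65.1 ± 3.24% in Lig4-KO (SD, n = 5) and 79.4 ± 16.4% in WT-Idelalisib (SD, n = 4), which did not pass (adjusted p = 0.0804, exact permutation). Libraries with fewer than 3 Pim1 junctions were left out.

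The Lig4-KO junctions outside the core lay on both sides of it. The stretch before the core held 22.0% of the junctions of a library with tazemetostat, 18.4% with valemetostat and 22.2% with DMSO in Lig4-KO, against 8.08%, 1.92% and 4.44% in WT-Idelalisib (adjusted p = 0.0804, 0.0179 and 0.0179, exact permutation). The stretch after the core held 13.7%, 17.9% and 12.6% in Lig4-KO, against 2.22%, 7.99% and 16.1% in WT-Idelalisib (adjusted p = 0.0357, 0.0357 and 0.627, exact permutation). These shares were compared after the profile had been seen, the core itself was placed mainly by Lig4-KO junctions, and the backgrounds were sequenced in different runs. WT pooled over all treatments had 26 of 32 junctions in the core, 3 before it and 3 after it. No difference in core share between inhibitor and DMSO within Lig4-KO or WT-Idelalisib passed the test (differences from -1.52 to 10.6 percentage points, adjusted p from 0.635 to 0.659, exact permutation).

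**Figure D4:**
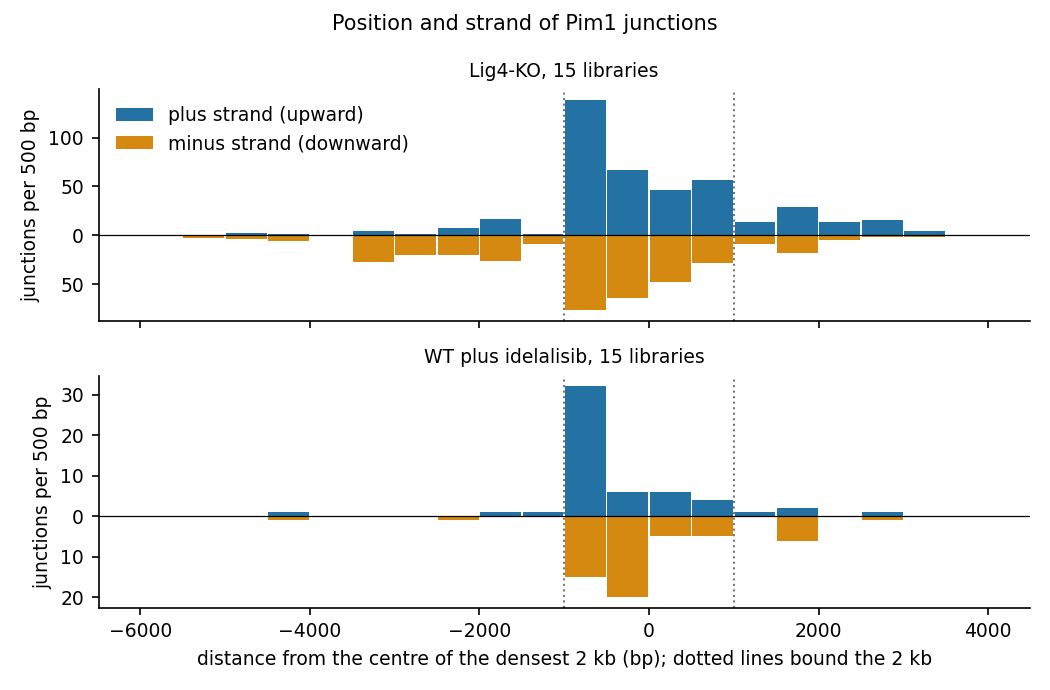
Pim1 junctions per 500 bp (vertical axis) by distance from the centre of the densest 2 kb, plus strand upward and minus strand downward, pooled over the 15 Lig4-KO libraries (top, 787 of 819 junctions within the axis) and the 15 WT-Idelalisib libraries (bottom, 109 of 110). Both rise steeply at the first dotted line, and before it Lig4-KO has mostly minus-strand junctions.

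Over the whole interval the strands were nearly balanced. In Lig4-KO 432 junctions were on the plus and 387 on the minus strand, in AID-KO 2 and 1, in WT-Idelalisib 55 and 55, and in WT 18 and 14. No background passed the exact sign-flip permutation test over its libraries (adjusted p from 0.646 to 1). All 6 WT DMSO junctions were on the plus strand. In HTGTS data a plus-strand junction usually means that the joined stretch runs from the junction towards higher coordinates, but the sources used here do not state the convention. No difference in the percent of plus junctions between inhibitor and DMSO passed the exact permutation test in Lig4-KO or WT-Idelalisib (adjusted p from 0.286 to 0.686).

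The strands were not evenly placed along the interval in Lig4-KO. Before the core 37 junctions were plus and 131 minus, so that 22.0% were plus, and all 15 libraries had more minus than plus there. In the core 309 were plus and 217 minus, with more plus in 12 of 15 libraries. After the core 86 were plus and 39 minus, with more plus in 14 of 15 libraries and equal numbers in the other. Minus junctions thus prevailed on the low-coordinate side and plus junctions on the high side. The same order held in each Lig4-KO treatment, with 25.8%, 21.4% and 17.4% plus before the core and 68.3%, 71.9% and 63.0% plus after it for tazemetostat, valemetostat and DMSO. WT-Idelalisib had 3 plus and 3 minus before the core, 48 and 45 in it, and 4 and 7 after it.

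The distance between strands was measured in each library as the median position of plus junctions minus that of minus junctions, a measure added after the profile had been seen. In Lig4-KO it averaged 348 ± 367 bp (SD, n = 15) and was above 0 in 13 of 15 libraries (two-sided exact sign-flip permutation test over libraries, adjusted p = 0.00842). By treatment, the Lig4-KO offset averaged 77.1 ± 252 bp with tazemetostat and 494 ± 365 bp with valemetostat, against 473 ± 371 bp with DMSO (SD, n = 5 each). Of the 5 tazemetostat libraries, 1 was at 490.5 bp and the other four lay between -200.0 and 43 bp. These treatment means were not tested against each other. In WT-Idelalisib it was -248 ± 971 bp (SD, n = 12), above 0 in 2 of 12 libraries, with an adjusted p of 0.407 in the same exact sign-flip permutation test. In WT it was 988 ± 946 bp in the 4 libraries with at least 3 Pim1 junctions and both strands, 3 of them above 0 (adjusted p = 0.375, exact sign-flip permutation). The difference between backgrounds was not tested. The other 8 windows with at least 50% of the Pim1 count also had the plus strand further along in Lig4-KO, in 12 to 15 of 15 libraries each, so the offset was not particular to Pim1.

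**Figure D5:**
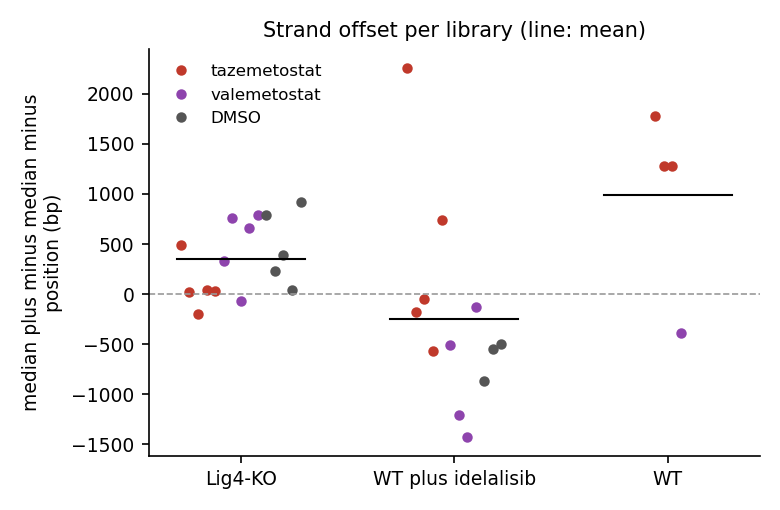
Median position of plus-strand minus that of minus-strand Pim1 junctions (bp), by background and coloured by treatment, with a line at the mean of each background. Shown is each library of Lig4-KO, WT-Idelalisib and WT with at least 3 Pim1 junctions and both strands present. In Lig4-KO 13 of 15 libraries lie above 0, and in WT-Idelalisib 2 of 12.

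Among those 8 windows, 3 followed the 12 group means of Pim1 most closely. They were chr10:18720000-18749999 with 518 junctions (Pearson r = 0.994), chr8:87480000-87509999 with 573 (r = 0.988) and chr8:129090000-129119999 with 859 (r = 0.987), all in mm9. The points share libraries and depth, and the likeness lies mainly in the high Lig4-KO means. The sources used here pair no gene with these mm9 windows. Pim1 had the highest ratio of Lig4-KO to WT among these 9 windows, 13.8 over all treatments, and the others lay between 2.98 and 12.0. Its ratio of WT-Idelalisib to WT was 3.72, in place 2 of 9 behind chr6:122490000-122519999 at 7.09. These ratios describe windows chosen by their counts and carry no test.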

How the data were processed

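LAM-HTGTS junctions of 60 CH12F3 libraries were analysed. The authors' deposited lists have no header and give a junction on each line, with chromosome, position (unit other), read name, a score whose meaning is not stated, and strand. Positions are on mm9, per the submitters' processing notes; how reads were aligned and junctions called, and whether positions count from 0 or 1, is not given in the sources used here. At Pim1 the deposited score ran from 30 to 205 (median 65, genome-wide 59) and was used in no result.

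Groups came from the labels and sequencing runs from the read names. Rates are Pim1 junctions per 10000 genome-wide junctions. Immunoglobulin intervals were written from knowledge. Identical junctions were kept. Rates and shares were tested with two-sided exact permutation of libraries, strands with exact sign-flip permutation, and p-values were adjusted by Benjamini-Hochberg over each family, with 0.05 as threshold. Intervals of a difference of means are those shifts the exact test does not reject. Windows of 30 kb with a mean of at least 1 junction were fitted with limma 3.58.1 (voom, 12 group means) in R 4.3.3, adjusted over all windows; other steps used Python 3.11.15, numpy 2.4.6 and scipy 1.17.1. The tests were tested on simulated data. A library with 4450 genome-wide junctions resolves rates only coarsely.

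Pim1, its interval and the lists were chosen with earlier results of these data known. Named windows are the 3 most like Pim1 over group means among those with at least 50% of its count; chr6:122490000-122519999 was named after its values were seen. Promoter sequences and names are from RefSeq, GRCm38.p6. Replicate numbers were not used to pair samples in the main tests, since the labels do not state a pairing. Over 37 pairs, deviations of same-numbered libraries correlated with r from -0.171 to 0.201, and 9 exceeded 0.1. Libraries with different numbers were not set beside them, so this check cannot exclude a pairing.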

Additional observations from a re-analysis of the deposited data

How the results depend on the processing

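Alternatives covered the denominator, interval, scale, thinning, single libraries, window size, tally minimum, limma trend and the replicate block. The rate in and without the densest 2 kb, the shares of Lig4-KO against WT-Idelalisib and the strand offsets were chosen after seeing the data. Of 225 recomputed rate differences, 196 kept direction and side of the threshold, 25 turned sign and 4 newly passed. No library listed a Pim1 junction more than 1 time, and counting identical junctions 1 time left every rate difference unchanged. Those differences are part of the 196. For Lig4-KO the adjusted p ranged from 0.0150 to 0.5 over 22 alternatives with tazemetostat and from 0.0314 to 0.5 with valemetostat. The 4 new passes were the densest 10 kb only (12.2 and 10.7), placed by these same junctions, and the quasi-Poisson log2 ratios (0.501 and 0.451). In the window fit on Lig4-KO libraries alone Pim1 passed too (0.505 and 0.441). A quasi-Poisson ratio could not be fitted for AID-KO tazemetostat, which has no Pim1 junction. The cause of these shifts was not tested.

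The uncalled differences in WT-Idelalisib turned sign often. With the densest 2 kb only they were 1.06 (tazemetostat) and 1.03 (valemetostat), on the log2 scale 0.138 and 0.0110, and with a widened interval 0.328 (valemetostat). Valemetostat minus tazemetostat was -0.111 with all junctions as denominator. Without single libraries they ran from -2.66 to 2.12, from -2.94 to 2.13 and from -2.71 to 2.44. The log2 window change ran from -0.398 to 0.450 and from -0.474 to 0.462, and was -0.000605 for valemetostat with all junctions as library size. Without AID-KO DMSO replicate 1, AID-KO valemetostat was 0.0457 (range without single libraries -0.436 to 0.0457). WT valemetostat was -0.0299 without the densest 2 kb. The difference of Lig4-KO and WT changes with valemetostat was 0.230 in 100 kb windows and 0.164 with the replicate block.

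Counts of called windows moved most. For Lig4-KO tazemetostat, 19 became 1 in 100 kb windows, 5 with limma trend, 6 and 9 with a mean of at least 0.5 and 2 junctions, 10 with all junctions as library size and 38 with Lig4-KO libraries alone. It fell to 10, 6 and 10 without DMSO replicates 2, 4 and 5, to 8 and 10 without tazemetostat replicates 3 and 4, and ran from 6 to 17 over single libraries. For Lig4-KO valemetostat, 5 became 0, 8, 3, 1 and 22 (in 100 kb windows, with limma trend, at 0.5, at 2, alone), and 9, 3, 9 and 3 without DMSO replicates 1 and 5 and valemetostat replicates 3 and 4. AID-KO valemetostat went to 1 in 100 kb windows, at 0.5 and with the replicate block, and to 0 to 3 without single libraries. Alone it went to 70, of which 69 fell, with a median log2 change of -1.09 over windows. Its libraries held 13204 to 14497 genome-wide junctions, against 4846 to 12494 with DMSO, and shared a run only with DMSO replicate 5. The part of depth and run in this fall was not tested. AID-KO tazemetostat went to 1 alone. WT-Idelalisib valemetostat gave 2 at 2, 1 alone and with the block, and 0 to 1 without single libraries. WT tazemetostat gave 0, 0, 2 and 0 (100 kb, 0.5, 2, alone) and 0 to 2, and WT valemetostat 7 at 0.5 and 4 to 7 without single libraries. Under these alternatives Pim1 itself was called only in the fit on Lig4-KO libraries alone.

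The share before the core with tazemetostat passed (18.2 points, adjusted p = 0.0143, exact permutation) with at least 5 Pim1 junctions per library. The core share against DMSO turned sign for a peak of 1 kb (2.31, 0.836 in Lig4-KO, -0.853 in WT-Idelalisib tazemetostat) and of 5 kb (2.09, 0.988, -4.87, and -0.256 with valemetostat). The AID-KO strand difference was -0.0833 in the densest 10 kb. The replicate block changed no call at Pim1: in Lig4-KO the differences were 12.0 and 10.2 and their adjusted p 0.5, where 5 pairs allow no p below 0.0625.

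A library held 0 to 4 Pim1 junctions in WT and 0 or 1 in AID-KO, so rates there move in coarse steps, and changes within the intervals given for WT (-0.9 to 5.3 and -1.6 to 3.2 per 10000) cannot be told from 0.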
